A study of Mus musculus with 32 samples.

Results

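Fat1, Fat2, Fat3, Fat4, Dchs1, Dchs2 and Fjx1 encode the Fat and Dachsous atypical cadherins and a kinase that modifies cadherins of this kind. These 7 genes were listed as members of the pathway by which Fat4 in kidney stroma signals to nephron progenitors, and all 7 were present in each of the 4 count tables, among 55806 gene identifiers in all. Messenger RNA was counted in 32 libraries of embryonic mouse kidney, which fall into 11 groups. Every animal carried a Cre driver, controls included. Six2-TGC tg/+ is a transgene that makes GFP-tagged Cre under the Six2 promoter, in nephron progenitors, and Foxd1 GC/+ is an allele that makes GFP-tagged Cre from the Foxd1 locus, in stromal progenitors, so that every Foxd1 group has lost a copy of Foxd1. Controls (ENL-WT) were Six2-TGC tg/+;Enl+/+ or Foxd1 GC/+;Enl+/+. Mutants were heterozygous for a Cre-dependent tumor allele of Enl (Mllt1), the gene of the histone acetyl-lysine reader ENL, as Six2-TGC tg/+;Enl T1/+ (Six2-ENL-T1), Six2-TGC tg/+;Enl T3/+ (Six2-ENL-T3) or Foxd1 GC/+;Enl T1/+ (Foxd1-ENL-T1). T1 is a small insertion and T3 a small deletion in the YEATS domain. Whole kidneys at E18.5 (E for embryonic day) gave 2 libraries each of Six2-ENL-T1, Six2-ENL-T3 and their ENL-WT, and 3 each of Foxd1 ENL-WT and Foxd1-ENL-T1. Cells positive for the Cre reporter tdTomato (tdT+) were sorted from Six2 kidneys at E14.5 and at E18.5, with 3 ENL-WT and 3 Six2-ENL-T1 libraries per stage, and from Foxd1 kidneys at E18.5, with 4 and 4. No label says that the libraries of a group came from separate animals, so p-values measure the spread between these libraries, which may in part be technical, although 5 groups (all 4 of sorted Six2 cells and Six2 ENL-WT whole kidneys) hold libraries of both sexes and so of more than 1 animal.

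Fat and Dachsous proteins are very large single-pass cadherins that bind each other between neighbouring cells. Fat4 and Dchs1 form the best known mammalian pair and signal in both directions, and Fjx1 is the mammalian relative of Drosophila Four-jointed, a Golgi kinase that phosphorylates cadherin repeats and so changes how strongly the partners bind. In the developing kidney the pair is known for crosstalk between stroma and the cap of nephron progenitors, where loss of stromal Fat4 or of Dchs1 enlarges the progenitor pool. The pathway has been linked to the Hippo kinases with their effectors YAP and TAZ, and to planar cell polarity.

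In the GENCODE vM21 annotation of GRCm38 (mm10), Fat4 (ENSMUSG00000046743) spans 38886940 to 39011985 on chromosome 3 and Dchs2 (ENSMUSG00000102692) spans 83127948 to 83357209 on the same chromosome, both on the plus strand. Dchs1 (ENSMUSG00000036862) is on chromosome 7 from 105752990 to 105787654 and Fat3 (ENSMUSG00000074505) on chromosome 9 from 15910189 to 16501285, both on the minus strand. Fat1 (ENSMUSG00000070047) is on chromosome 8, plus strand, from 44935447 to 45052257, and Fat2 (ENSMUSG00000055333) on chromosome 11, minus strand, from 55250609 to 55336564. Fjx1 (ENSMUSG00000075012) is a gene of a single exon on chromosome 2, minus strand, from 102449366 to 102452499. Merged exons add up to 21478 bases in Fat3, 17165 in Fat4, 15655 in Fat1, 14528 in Fat2, 11052 in Dchs1 and 10783 in Dchs2, but to 3134 in Fjx1. Reads were counted without strand, so those in exons shared with another gene cannot be assigned with certainty. The shared part is 12% of exon length in Dchs2 (Gm10710), 8.68% in Fat4 (C230034O21Rik and Gm43539), 5.86% in Dchs1 (Gm15645) and 3.11% in Fat1 (Gm2366).

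RefSeq promoters of GRCm38.p6, 300 bases each from 250 before to 50 after the RefSeq start, were at hand for 5 of the 7 genes. Of these, only the RefSeq start of Fat4 is also the GENCODE gene start given above. The windows of Dchs2 and Fat3 lie wholly upstream of the GENCODE gene. Those of Fat1 (chr8:44949958-44950257) and Fat2 (chr11:55312208-55312507) lie inside it. The windows of Dchs2, Fat4 and Fat3 are shown because these genes differed between genotypes in sorted Six2 cells at E18.5, the first pair upward and Fat3 downward. They lie at chr3:83127277-83127576 (plus strand), chr3:38886690-38886989 (plus strand) and chr9:16502005-16502304 (minus strand), and capitals mark CpG dinucleotides.
Dchs2: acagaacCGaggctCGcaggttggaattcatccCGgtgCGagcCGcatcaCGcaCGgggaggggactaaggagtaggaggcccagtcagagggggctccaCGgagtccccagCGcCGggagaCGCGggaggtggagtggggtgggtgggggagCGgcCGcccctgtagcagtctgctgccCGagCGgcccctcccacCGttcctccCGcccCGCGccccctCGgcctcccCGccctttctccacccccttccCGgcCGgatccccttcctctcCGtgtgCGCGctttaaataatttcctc
Fat4: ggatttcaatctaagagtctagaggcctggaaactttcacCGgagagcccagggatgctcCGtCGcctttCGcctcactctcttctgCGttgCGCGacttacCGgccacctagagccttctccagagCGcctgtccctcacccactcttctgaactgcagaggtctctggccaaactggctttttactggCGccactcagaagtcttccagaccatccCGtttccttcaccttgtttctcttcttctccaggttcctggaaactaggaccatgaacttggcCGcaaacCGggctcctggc
Fat3: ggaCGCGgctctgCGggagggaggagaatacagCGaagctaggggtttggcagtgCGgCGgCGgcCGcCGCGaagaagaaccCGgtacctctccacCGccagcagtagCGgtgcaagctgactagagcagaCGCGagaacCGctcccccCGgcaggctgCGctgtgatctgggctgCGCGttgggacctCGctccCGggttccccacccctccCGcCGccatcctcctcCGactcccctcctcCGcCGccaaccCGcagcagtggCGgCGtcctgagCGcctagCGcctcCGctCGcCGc
These windows hold 27 CpG dinucleotides in Dchs2, 13 in Fat4 and 35 in Fat3, against a median of 7 over 32851 promoter windows of this length. At least as many are found in 15.5%, 37.9% and 7.0% of all windows, respectively. The motif GGAATG, the core bound by the TEAD partners of YAP and TAZ, was searched on both strands and is in none of the 3 windows shown. The windows of Fat1 and Fat2 hold 1 match each, at positions -102 and -185 from the RefSeq start, and 14.7% of all windows hold it.

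Total counts were 2557443 to 3508381 per library in sorted Foxd1 cells and 67137194 to 157266455 in the other libraries. A count of 3, taken as the limit of what can be read as a level, stood at 0.833 to 1.21 CPM (CPM, counts scaled to a common library size) in the former and at no more than 0.0446 CPM in the latter, which covers counting error only. Marker sums followed the labels, with 10 stromal markers adding up to 7260 to 10100 CPM in sorted Foxd1 ENL-WT cells and to 350 to 670 CPM in sorted Six2 ENL-WT cells, where all 10 were detected. Nephron progenitor markers added up to 1070 to 2050 CPM in the latter and to 133 to 182 CPM in the former. The counts of Mllt1 cannot tell the mutant from the normal transcript, and its log2 fold changes, from -0.33 to -0.02 over the 6 comparisons of a mutant with ENL-WT, stayed below 1.5-fold. The second ENL-WT library of whole Six2 kidneys stands apart from the first, with skeletal muscle markers at 51.3 CPM against 7.14 CPM, and is named below wherever it decides a value. In whole Foxd1-ENL-T1 kidneys these markers ranged from 3.77 to 105 CPM (median 6.41), against 9.46 to 26.4 CPM in their ENL-WT. Their part in the values of whole Foxd1 kidneys was not tested. Xist and Ddx3y show that both Six2-ENL-T1 whole kidneys were male, both Six2-ENL-T3 whole kidneys female, and that of the ENL-WT whole kidneys the first was male and the second female.

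The 7 genes differed widely in level. Divided by exon length so that genes can be compared, sorted Six2 ENL-WT cells at E18.5 held 64.0 ± 0.728 CPM per kilobase of Fat1 (SD, n = 3), 14.7 ± 0.952 of Dchs1, 10.6 ± 0.526 of Fat4, 10.2 ± 1.92 of Fjx1 and 8.75 ± 0.994 of Fat3. Fat2, at 0.153 ± 0.0198 CPM per kilobase, and Dchs2, at 0.0803 ± 0.0107, were far lower. In sorted Foxd1 ENL-WT cells the same scale gave 11.7 ± 0.861 for Dchs1 (SD, n = 4), 10.7 ± 0.517 for Fat1, 7.00 ± 0.286 for Fat4, 6.98 ± 0.814 for Fjx1 and 1.77 ± 0.285 for Fat3. Fat4 and its partner gene Dchs1 were thus detected at similar orders of magnitude in both lineages, whereas Fat1 and Fat3 stood higher in the nephron lineage. Fat2 had 0 or 1 count and Dchs2 1 to 7 counts in each of the 8 sorted Foxd1 libraries, so neither could be tested there. The tables were scaled separately, so that levels set side by side across tables are a description.

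**Figure D1:**
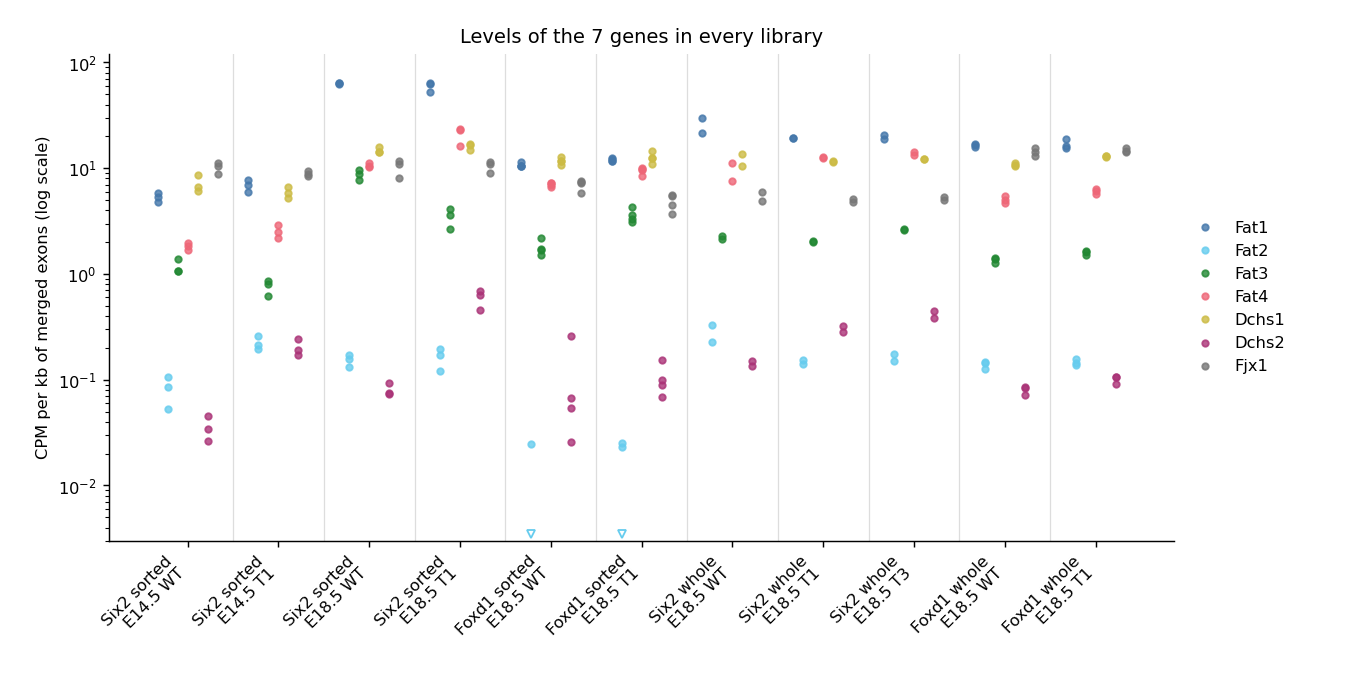
Level of each of the 7 genes in each of the 32 libraries, in CPM per kilobase of merged exons on a log axis, by group (T1 and T3 are the mutant genotypes, WT is ENL-WT, triangles at the bottom mark libraries at 0). Fat1 reaches 64.0 CPM per kilobase in sorted Six2 ENL-WT cells at E18.5, and Fat2 and Dchs2 stay below 1 CPM per kilobase in every library.

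Ordered by level over the 11 groups, Fat4 had its highest mean in sorted Six2-ENL-T1 cells at E18.5 (21.0 ± 4.28 CPM per kilobase, SD, n = 3) and its lowest in sorted Six2 ENL-WT cells at E14.5 (1.82 ± 0.132), an 11.5-fold range. Of its 10 pairs of neighbouring groups 1 overlapped, that of sorted Foxd1-ENL-T1 cells with Six2 ENL-WT whole kidneys. Dchs1 varied least, over a 2.72-fold range from 16.1 ± 0.967 in sorted Six2-ENL-T1 cells at E18.5 to 5.93 ± 0.725 in the same genotype at E14.5, and 7 of its 10 neighbouring pairs overlapped. Fjx1, with a 3.06-fold range, was highest in whole Foxd1 kidneys (14.7 ± 0.707 in Foxd1-ENL-T1) and lowest in sorted Foxd1-ENL-T1 cells (4.81 ± 0.914), and 8 of its 10 pairs overlapped. Dchs2 spanned 16.9-fold, from 0.595 ± 0.122 in sorted Six2-ENL-T1 cells at E18.5 to 0.0353 ± 0.00978 in sorted Six2 ENL-WT cells at E14.5, with 4 of 10 pairs overlapping.

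Genes were called when the adjusted p of edgeR's quasi-likelihood test, corrected over all genes tested, was under 0.05 and the fold change over 1.5. In sorted Six2 cells 3 of the 7 genes were called at E18.5, beside 11.7% of 22685 genes tested, and 3 of 7 at E14.5, beside 6.4% of 22387. In whole Six2 kidneys 2 of 7 were called in Six2-ENL-T1, beside 7.77% of 23931 genes, and 2 of 7 in Six2-ENL-T3, beside 9.62%. Among sorted Foxd1 cells 1 of the 5 genes tested was called, beside 5.81% of 12717 genes. In whole Foxd1 kidneys none of the 7 was called by edgeR, DESeq2 or the exact test, beside 10.2% of 20145 genes. There 3 of the 7 had an unadjusted p under 0.05, beside 8666 of the 20145 genes. The median log2 fold change of the genes tested was 0.10 in sorted Six2 cells at E18.5, 0.39 at E14.5, -0.13 in whole kidneys of Six2-ENL-T1, 0.01 in those of Six2-ENL-T3, 0.18 in sorted Foxd1 cells and 0.22 in whole Foxd1 kidneys, where the median over all genes lay between -0.0134 and 0.0153.

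Fat4 encodes the cadherin that defines the pathway. At E18.5 it had 175, 180 and 192 CPM in the sorted Six2 ENL-WT libraries and 276, 398 and 407 CPM in Six2-ENL-T1. The genotypes did not overlap, and the lowest mutant library stood well above the highest control. The log2 fold change was 0.99 ± 0.12 (SE, edgeR adjusted p = 4.77e-05), a 1.98-fold rise that stayed called under every alternative run and ranged from 0.88 to 1.15 with each library left out in turn. At E14.5 the level was lower, 28.9 to 33.4 CPM in ENL-WT against 37.6 to 49.9 CPM in Six2-ENL-T1. Here too the genotypes did not overlap, but the log2 fold change of 0.49 ± 0.10 (edgeR adjusted p = 0.0177) did not reach 1.5-fold. The stage by genotype interaction of Fat4 was 0.51 ± 0.18 (edgeR adjusted p = 0.114) and not called, though it was called with no low-count filter (0.46, edgeR adjusted p = 0.0453). It was also called without the first Six2-ENL-T1 library of E18.5.

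Outside the nephron lineage sort, Fat4 was above ENL-WT in each mutant group by less than 1.5-fold. Sorted Foxd1 cells had 114, 124, 124 and 118 CPM in ENL-WT against 170, 143, 164 and 173 CPM in Foxd1-ENL-T1. All 4 mutant libraries lay above all 4 controls, at a log2 fold change of 0.44 ± 0.08 (edgeR adjusted p = 0.000812). Whole Foxd1 kidneys had 80.0 to 94.2 CPM in ENL-WT against 98.4 to 109 CPM in Foxd1-ENL-T1, a log2 difference of 0.26 ± 0.06 (edgeR adjusted p = 0.00798). In whole Six2 kidneys ENL-WT had 131 and 192 CPM, the Six2-ENL-T1 pair 218 and 214 CPM and the Six2-ENL-T3 pair 243 and 231 CPM. The ENL-WT pair was the most spread, and its higher value came from the library with muscle markers. The log2 fold changes were 0.42 ± 0.15 (edgeR adjusted p = 0.122) in Six2-ENL-T1 and 0.55 ± 0.15 (edgeR adjusted p = 0.0445) in Six2-ENL-T3, neither called. With library size as the only scaling the value in Six2-ENL-T3 was called (0.62, edgeR adjusted p = 0.0267). Over the 6 fits that left out 1 library, Fat4 ranged from 0.18 to 0.74 in Six2-ENL-T1 and from 0.31 to 0.87 in Six2-ENL-T3. The highest values, 0.74 and 0.87, were those without the second ENL-WT library. With sex as a covariate, an alternative chosen after seeing the data, Fat4 was at 0.72 in Six2-ENL-T1. In that fit Six2-ENL-T3 stood below Six2-ENL-T1, at -0.42. Both Six2-ENL-T1 kidneys were male and both Six2-ENL-T3 kidneys female. Each mutant is thus in effect set against the 1 ENL-WT library of its sex.

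Markers of other cells moved with Fat4 in the sorted Six2 cells. At E18.5 the 10 stromal markers, all detected in both genotypes, added up to 350 to 595 CPM in ENL-WT against 844 to 979 CPM in Six2-ENL-T1, 7 of them called up and 2 down. Macrophage markers (6 of 6 detected) went from 30.9 to 34.2 CPM in ENL-WT up to 57.5 to 70.2 CPM (4 called up), and red cell markers (5 of 5) from 99.7 to 201 CPM up to 1480 to 2180 CPM (4 called up). At E14.5 the stromal sum was 515 to 670 CPM in ENL-WT and 983 to 1950 CPM in Six2-ENL-T1 (8 called up, 1 down), and all 6 nephron progenitor markers were called down, from 1760 to 2050 CPM to 883 to 1070 CPM. These shifts stand beside every value of the 7 genes in sorted Six2 cells, and their part in the Fat4 difference was not tested. In a bulk sample, fewer cells of a type and less RNA per cell cannot be told apart.

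Dchs1, which encodes the main partner of Fat4, was called in none of the 6 comparisons of a mutant with ENL-WT by edgeR, DESeq2 or the exact test. Sorted Six2 cells at E18.5 had 174, 156 and 157 CPM in ENL-WT against 166, 182 and 186 CPM in Six2-ENL-T1. These ranges overlapped, at a log2 fold change of 0.14 ± 0.07 (edgeR adjusted p = 0.207), and at E14.5 it was -0.25 ± 0.13 (edgeR adjusted p = 0.294), again with overlap. In sorted Foxd1 cells it had 118 to 142 CPM in ENL-WT against 122 to 163 CPM in Foxd1-ENL-T1, overlapping (log2 fold change 0.12 ± 0.09, edgeR adjusted p = 0.433). Whole Foxd1 kidneys gave the tightest values, 123, 119 and 115 CPM in ENL-WT against 142, 143 and 143 CPM in Foxd1-ENL-T1. The libraries there did not overlap, and the 1.20-fold difference (log2 0.26 ± 0.05, edgeR adjusted p = 0.00122), the only one with an unadjusted p under 0.05, stayed under the fold-change threshold.

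Dchs2 encodes the second Dachsous cadherin and was called up in all 4 comparisons of Six2 mutants with ENL-WT. Sorted Six2 cells at E18.5 had 0.998, 0.789 and 0.809 CPM in ENL-WT (57 to 79 counts) and 4.95, 7.48 and 6.82 CPM in Six2-ENL-T1 (455 to 597 counts). Every mutant library was over 4 times any control. The log2 fold change was 2.89 ± 0.21 (edgeR adjusted p = 4.13e-07), or 7.42-fold. At E14.5 the values were 0.366, 0.492 and 0.283 CPM in ENL-WT against 2.04, 1.83 and 2.64 CPM in Six2-ENL-T1, again without overlap and with a log2 fold change of 2.52 ± 0.27 (edgeR adjusted p = 0.000797). Whole Six2 kidneys had 1.61 and 1.45 CPM in ENL-WT, against 3.46 and 3.05 CPM for the Six2-ENL-T1 pair and 4.80 and 4.12 CPM for the Six2-ENL-T3 pair. Both mutants lay above ENL-WT, at log2 fold changes of 1.09 ± 0.15 (edgeR adjusted p = 0.00311) and 1.54 ± 0.15 (edgeR adjusted p = 0.000569). These 4 calls held under every alternative run, at 2.76 to 3.05, 2.35 to 2.75, 1.01 to 1.19 and 1.44 to 1.65 with each library left out. Even after the rise Dchs2 stayed at 0.595 ± 0.122 CPM per kilobase in sorted Six2-ENL-T1 cells at E18.5, against 16.1 ± 0.967 for Dchs1. No such difference was called in the stromal lineage. Whole Foxd1 kidneys had 0.776 to 0.924 CPM in ENL-WT against 0.980 to 1.15 CPM in Foxd1-ENL-T1, not overlapping but at a log2 fold change of 0.32 ± 0.23 (edgeR adjusted p = 0.309), and sorted Foxd1 cells held at most 7 counts per library. The marker sums that moved with Fat4 moved with Dchs2 as well. Their part in the Dchs2 difference was not tested.

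**Figure D2:**
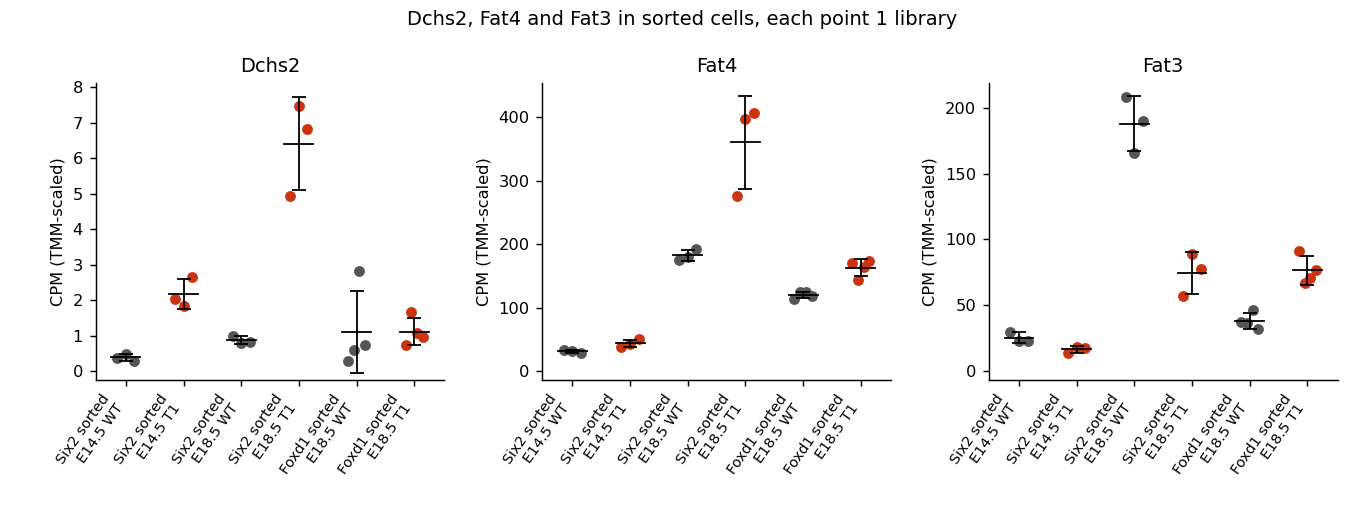
Dchs2, Fat4 and Fat3 in sorted tdT+ cells, in CPM on TMM-scaled libraries, with 1 point per library (grey ENL-WT, red ENL-T1), horizontal bars at the mean and error bars of 1 SD (n = 3 in Six2 and 4 in Foxd1 groups). Dchs2 and Fat4 are higher and Fat3 lower in Six2-ENL-T1 at E18.5, while Fat3 is higher in Foxd1-ENL-T1 at 67.2 to 91.6 CPM against 32.2 to 46.6 CPM.

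Fat3, a family member best known from the nervous system and retina, moved in opposite directions in the 2 lineages. Sorted Six2 cells at E18.5 had 208, 166 and 190 CPM in ENL-WT against 57.1, 89.3 and 77.3 CPM in Six2-ENL-T1. The genotypes were far apart, with a log2 fold change of -1.33 ± 0.13 (edgeR adjusted p = 1e-05) and -1.48 to -1.17 with each library left out. Sorted Foxd1 cells had 37.0, 36.2, 46.6 and 32.2 CPM in ENL-WT against 91.6, 67.2, 70.5 and 76.8 CPM in Foxd1-ENL-T1. All mutant libraries lay above all controls, at a log2 fold change of 1.01 ± 0.12 (edgeR adjusted p = 9.77e-06), and both calls held under every alternative run. The counts behind the sorted Foxd1 values were 89 to 133 in ENL-WT and 196 to 247 in Foxd1-ENL-T1. Tested as an interaction of lineage and genotype over the 14 sorted libraries of E18.5, the difference of the log2 fold changes was 2.32 ± 0.20 (edgeR adjusted p = 4.28e-08), beside 15.9% of 14869 genes with a called interaction. The lineages were sequenced in separate runs, so lineage and run cannot be told apart in any interaction of this kind. Fat4 was called in the same test, at -0.57 ± 0.15 (edgeR adjusted p = 0.0117). Dchs2 came out at -2.72 ± 0.71 (edgeR adjusted p = 0.011) and makes 3 called of 6 tested, but it passed the filter through the Six2 libraries alone, on 1 to 7 counts in each Foxd1 library, so no difference between lineages is read from it. Without the third sorted Foxd1 ENL-WT library, which held 7 of the 12 ENL-WT counts of Dchs2, the Dchs2 interaction was -1.80 and not called.

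At E14.5 Fat3 had 30.0, 23.0 and 22.9 CPM in sorted Six2 ENL-WT cells and 13.4, 18.6 and 17.2 CPM in Six2-ENL-T1. The libraries did not overlap, and the log2 fold change of -0.61 ± 0.15 (edgeR adjusted p = 0.0286) lay just past the 1.5-fold threshold. This call was lost when any 1 of 4 libraries was left out (ENL-WT 1 or 2, Six2-ENL-T1 1 or 3), at values from -0.71 to -0.47 over the 6 such fits, and with library size as the only scaling. The stage by genotype interaction of Fat3 was -0.71 ± 0.23 (edgeR adjusted p = 0.0731) and not called. It was called with DESeq2 (-0.75), with no low-count filter (-0.76), and in 3 of the 12 fits that left out 1 library. Whole Six2 kidneys had 46.5 and 48.8 CPM in ENL-WT, against 43.8 and 43.5 CPM for the Six2-ENL-T1 pair and 57.5 and 55.8 CPM for the Six2-ENL-T3 pair. The differences from ENL-WT were small, -0.13 ± 0.06 (edgeR adjusted p = 0.217) and 0.25 ± 0.06 (edgeR adjusted p = 0.0217), and neither was called. Whole Foxd1 kidneys had 27.1 to 30.7 CPM in ENL-WT against 32.3 to 35.5 CPM in Foxd1-ENL-T1 (log2 0.22 ± 0.07, edgeR adjusted p = 0.021), also not called.

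Cell type markers moved with Fat3 in the nephron lineage. At E18.5 the 5 podocyte markers, all detected, added up to 2760 to 3230 CPM in sorted Six2 ENL-WT cells and 192 to 244 CPM in Six2-ENL-T1, all 5 called down. Nephron progenitor markers (6 of 6 detected, all called down) went from 1070 to 1380 CPM to 392 to 503 CPM, and proximal tubule markers (5 of 5, all called down) from 1250 to 1680 CPM to 432 to 475 CPM. Their part in the fall of Fat3 was not tested. In sorted Foxd1 cells the stromal marker sums of the genotypes overlapped (7260 to 10100 CPM in ENL-WT, 7480 to 8570 CPM in Foxd1-ENL-T1), and macrophage markers (6 of 6 detected, 5 called up) stood at 75.2 to 188 and 187 to 261 CPM. The part of these shifts in the rise of Fat3 was not tested either.

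Fat1, a cadherin of podocyte junctions and many epithelia, was abundant in the nephron lineage and was called in no comparison of a mutant with ENL-WT by edgeR, DESeq2 or the exact test on all libraries. In sorted Six2 cells at E18.5 it had 1010, 1010 and 989 CPM in ENL-WT against 831, 979 and 994 CPM in Six2-ENL-T1. The ranges overlapped (log2 fold change -0.09 ± 0.07, edgeR adjusted p = 0.442), beside podocyte markers that fell by more than 10-fold in the same libraries. At E14.5 it had 75.5 to 90.3 CPM in ENL-WT against 93.7 to 120 CPM in Six2-ENL-T1, not overlapping but under 1.5-fold (log2 0.39 ± 0.10, edgeR adjusted p = 0.0331). The stage by genotype interaction of Fat1 was -0.47 ± 0.13 (edgeR adjusted p = 0.0393). In whole Six2 kidneys ENL-WT had 336 and 465 CPM, the Six2-ENL-T1 pair 301 and 305 CPM and the Six2-ENL-T3 pair 322 and 297 CPM, with log2 fold changes of -0.40 ± 0.14 (edgeR adjusted p = 0.104) and -0.37 ± 0.14 (edgeR adjusted p = 0.111). The higher ENL-WT value is again that of the library with muscle markers. Over the 6 fits that left out 1 library these values ranged from -0.61 to -0.13 and from -0.59 to -0.10. Without the other ENL-WT library they were -0.61 and -0.59. With sex as a covariate Fat1 was at -0.59 in Six2-ENL-T3, which stood below Six2-ENL-T1, at -0.44. Each mutant is again in effect set against the 1 ENL-WT library of its sex. In Foxd1 kidneys Fat1 differed by 0.18 ± 0.07 in sorted cells (edgeR adjusted p = 0.112) and 0.04 ± 0.07 in whole kidneys (edgeR adjusted p = 0.659).

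Fat2, known from cerebellar granule cells and from migrating epithelia of the fly, was low throughout. In sorted Six2 cells at E14.5 it had 0.764, 1.56 and 1.25 CPM in ENL-WT (98 to 218 counts) and 3.74, 3.07 and 2.82 CPM in Six2-ENL-T1 (375 to 530 counts). The genotypes did not overlap, at a log2 fold change of 1.45 ± 0.26 (edgeR adjusted p = 0.00858), beside the shift of stromal and progenitor markers at that stage given above. By E18.5 ENL-WT had 1.92 to 2.49 CPM and Six2-ENL-T1 1.77 to 2.86 CPM, which overlapped (log2 0.10 ± 0.22, edgeR adjusted p = 0.815). The stage by genotype interaction was -1.34 ± 0.37 (edgeR adjusted p = 0.0386). Fat1 and Fat2 were the 2 of 7 genes called in this interaction, beside 8.16% of 25222 genes. Each fell out of the call when some of the 12 libraries were left out, 6 of 12 for Fat1 (values from -0.58 to -0.39) and 8 of 12 for Fat2 (-1.58 to -1.11). In whole Six2 kidneys Fat2 went the other way, with 3.32 and 4.78 CPM in ENL-WT, against 2.04 and 2.22 CPM for the Six2-ENL-T1 pair and 2.17 and 2.56 CPM for the Six2-ENL-T3 pair. Both mutants lay below ENL-WT (log2 fold changes -0.93 ± 0.20, edgeR adjusted p = 0.0201, and -0.78 ± 0.20, edgeR adjusted p = 0.0349). The first call was lost without ENL-WT library 2 or either Six2-ENL-T1 library (-1.16 to -0.62 over the 6 fits), and the second in 5 of the 6 fits that left out 1 library, all but that without ENL-WT library 1 (-1.01 to -0.47). Fat2 in whole Foxd1 kidneys had 1.83 to 2.13 CPM in ENL-WT against 2.02 to 2.27 CPM in Foxd1-ENL-T1, and it was the 1 of 7 genes called in the interaction of driver and genotype in whole kidneys (0.99 ± 0.26, edgeR adjusted p = 0.0336), beside 8.37% of 22826 genes. Driver and sequencing run cannot be told apart there, all 6 Foxd1 whole kidneys were female, and with sex as a covariate Fat2 was at 0.67 (edgeR adjusted p = 0.147, not called) and Fat4 was called (-0.51, edgeR adjusted p = 0.0116). The Fat2 call was lost in 7 of the 10 fits without 1 library, at 0.67 to 1.26.

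Fjx1, the kinase gene, was called in no comparison of genotypes by edgeR, DESeq2 or the exact test. The difference nearest to a call was in sorted Foxd1 cells, with 22.5, 23.3, 18.1 and 23.5 CPM in ENL-WT against 11.5, 17.6, 14 and 17.1 CPM in Foxd1-ENL-T1. The highest mutant library was just below the lowest control (log2 fold change -0.54 ± 0.16, edgeR adjusted p = 0.0359, 0.689-fold), on 31 to 81 counts per library. The value passed 1.5-fold, and was called, when ENL-WT library 3 or Foxd1-ENL-T1 library 2 or 4 was left out (-0.61 to -0.43 over 8 fits). In the other 5 comparisons Fjx1 lay between -0.18 and 0.05 on the log2 scale and its libraries overlapped between genotypes.

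**Figure D3:**
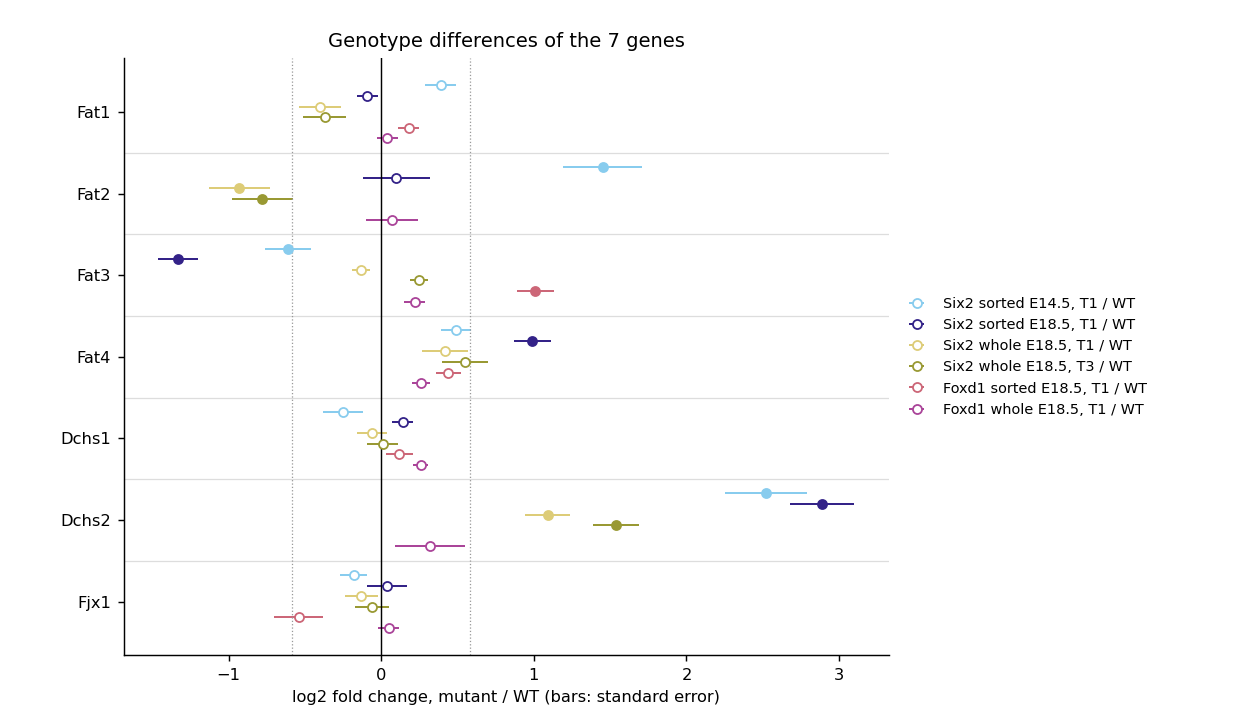
Log2 fold change of each gene in the 6 comparisons of a mutant with ENL-WT (x axis, bars of 1 SE), with filled points for called differences and dotted lines at 1.5-fold. Dchs2 lies to the right in all 4 Six2 comparisons, at 1.09 to 2.89, and Fat3 lies on opposite sides in sorted Six2 (-1.33) and sorted Foxd1 cells (1.01) of E18.5.

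Six2-ENL-T3 and Six2-ENL-T1 whole kidneys were also set against each other. None of the 7 genes was called by edgeR, DESeq2 or the exact test, beside 0.00418% of 23931 genes, which is 1 gene. Beside 1720 of the 23931 genes, 2 of the 7 had an unadjusted p under 0.05. These were Fat3, higher in Six2-ENL-T3 by 0.38 ± 0.06 on the log2 scale (edgeR adjusted p = 0.299), and Dchs2, higher by 0.45 ± 0.15 (edgeR adjusted p = 0.601). Neither gene's libraries overlapped between the mutants, but the mutants also differed in sex. With sex as a covariate the sign turned for the other 5 genes, with none called.

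Between E14.5 and E18.5, 5 of the 7 genes rose in sorted Six2 ENL-WT cells. Here a call needed more than a 2-fold difference with an adjusted p below 0.01, and the 5 that passed were Fat1, Fat3, Fat4, Dchs1 and Dchs2, beside 45.5% of 25222 genes in either direction and 24.8% upward. Fat1 went from 75.5 to 90.3 CPM up to 989 to 1010 CPM, a log2 fold change of 3.59 ± 0.10 (edgeR adjusted p = 8.31e-13). Fat3 and Fat4 rose by 2.89 ± 0.17 (edgeR adjusted p = 1.01e-09) and 2.55 ± 0.14 (edgeR adjusted p = 3.89e-10). The Dachsous genes rose less, Dchs1 by 1.04 ± 0.12 (edgeR adjusted p = 1.44e-06) and Dchs2 by 1.18 ± 0.26 (edgeR adjusted p = 0.000815). The Dchs1 call was lost without the second or the third ENL-WT library of E14.5 (0.93 to 1.20 over 12 fits) and with library size as the only scaling. Fat2 differed by 0.90 ± 0.26 and fell short of 2-fold, though it was called with DESeq2 or RLE factors (1.04 each) and without the second ENL-WT library of E14.5 or the third of E18.5 (0.66 to 1.14 over 12 fits). Fjx1 had 27.8 to 34.8 CPM at E14.5 and 25.2 to 36.7 CPM at E18.5, a log2 difference of 0.00 ± 0.13. Genes of this length moved the same way as a class. Among the 1487 tested genes with over 10 kilobases of exon, to which all of these but Fjx1 belong, the median log2 fold change was 0.98 (quartiles 0.03 and 2.14), with 47.5% called up and 4.3% down, while for genes of 3 to 5 kilobases the median was -0.22. Taken relative to the median of their own length class, Fat1, Fat3 and Fat4 were at 2.61, 1.91 and 1.57, whereas Dchs1, Dchs2 and Fat2 were at 0.06, 0.20 and -0.08. The stages were dissociated with different enzymes, so stage and protocol cannot be told apart.

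Sorted stromal and nephron lineage cells of ENL-WT kidneys at E18.5 were compared with the same thresholds, and 2 of the 6 genes tested were called, beside 55.4% of 14869 genes. Fat1 was lower in the stromal cells by -2.37 ± 0.07 on the log2 scale (edgeR adjusted p = 7.1e-18) and Fat3 by -2.10 ± 0.14 (edgeR adjusted p = 1.13e-11). Fat4 was also lower in stroma, by -0.39 ± 0.11 (edgeR adjusted p = 0.00202), and Dchs1 by -0.11 ± 0.09 (edgeR adjusted p = 0.219), neither called. Gene length bears on these values too, since the median log2 difference was -0.96 for tested genes over 10 kilobases and 0.05 for those of 3 to 5 kilobases. Relative to their own length class Fat4 and Dchs1 came out higher in stroma, by 0.56 and 0.84, and Fat1 and Fat3 lower, by -1.42 and -1.15. The direction for Fat4 and Dchs1 thus turns with the treatment of length, and lineage, sequencing run, read length and depth cannot be told apart.

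**Figure D4:**
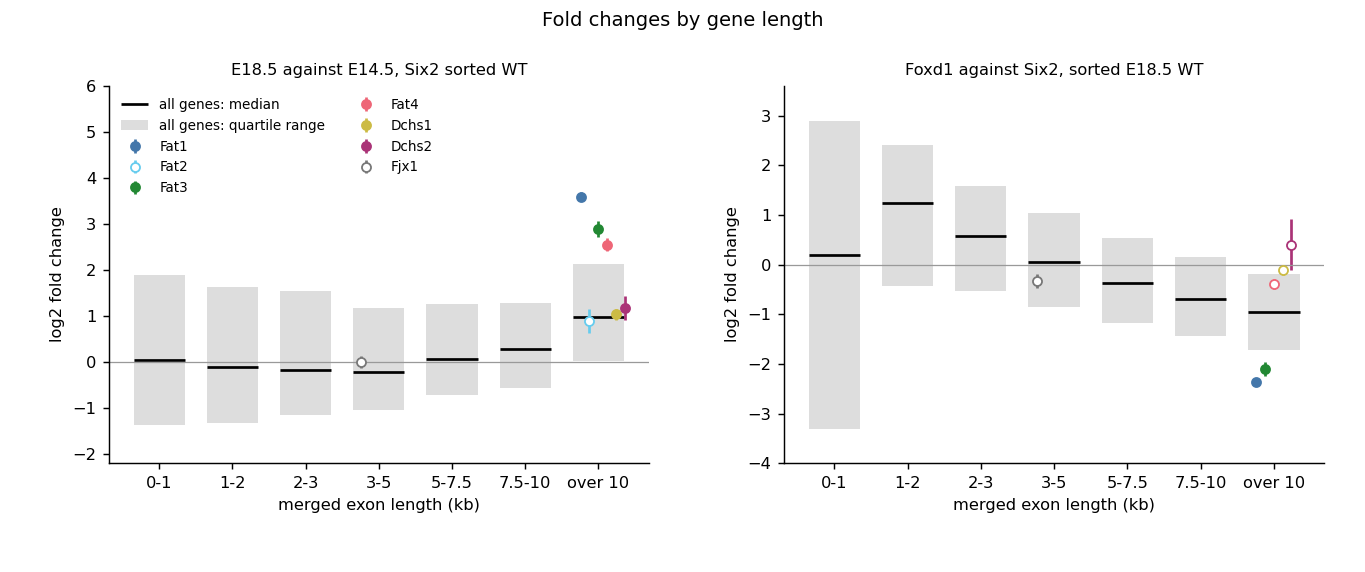
Log2 fold changes by merged exon length, for sorted Six2 ENL-WT cells of E18.5 against E14.5 (left) and for sorted Foxd1 against sorted Six2 ENL-WT cells at E18.5 (right), with grey bars from the lower to the upper quartile of all tested genes, black lines at their median, and points with bars of 1 SE for the 7 genes (filled where called). The median of genes over 10 kilobases is 0.98 on the left and -0.96 on the right, and Fat1, Fat3 and Fat4 lie above the upper quartile on the left.

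In the genotype comparisons length classes lay closer together. In sorted Six2 cells at E18.5 the median was -0.01 for genes over 10 kilobases and 0.02 for those of 3 to 5 kilobases, and in sorted Foxd1 cells it was -0.04 and -0.01. The shares called were higher among genes over 10 kilobases in sorted Six2 cells. At E18.5 these were 10.7% up and 6.17% down, against 6.14% and 5.54% of all genes. At E14.5 they were 7.51% and 3.03%, against 4.11% and 2.28%. Relative to their own length class, Dchs1 was at 0.20 and Fat1 at -0.02 in whole Foxd1 kidneys, and Dchs1 at -0.01 in Six2-ENL-T3.

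Other genes of the pathway were read from 4 lists. Of 26 genes of the Hippo core (kinases, adaptors, YAP, TAZ and TEAD genes), 0 rose and 1 fell in sorted Six2 cells at E18.5. At E14.5 0 rose and 3 fell. Among all genes tested in sorted Six2 cells, 6.14% rose and 5.54% fell at E18.5, and 4.11% rose and 2.28% fell at E14.5. In each of the whole Six2 mutants 1 Hippo gene fell, beside 4.88% (T1) and 5.28% (T3) of all genes. No Hippo gene was called in either Foxd1 comparison by edgeR, beside 5.81% (sorted) and 10.2% (whole) of all genes. An unadjusted p under 0.05 was found there for 7 of 25 (sorted) and 16 of 26 (whole). Among all genes, 2967 of 12717 (sorted) and 8666 of 20145 (whole) had such a p. The gene that fell at both sorted Six2 stages was Amot, a YAP-binding scaffold (log2 fold change -0.86 ± 0.08, edgeR adjusted p = 3.13e-06, at E18.5). Planar polarity genes, 20 in number, were called in none of the 6 comparisons of a mutant with ENL-WT by edgeR, beside 5.81% to 11.7% of all genes. An unadjusted p under 0.05 was found for 3 (of 17, sorted Foxd1 cells) to 13 (of 20, whole Foxd1 kidneys). The counts of all genes with such a p in these Foxd1 comparisons are those given above.

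Of 20 targets of YAP and TAZ, 1 was called up and 6 down in sorted Six2 cells at E18.5, with a list median of -0.31 on the log2 scale, beside 6.14% of all genes tested called up and 5.54% down. In whole kidneys 1 rose and 3 fell of 19 in Six2-ENL-T1, 1 rose and 6 fell in Six2-ENL-T3, and none rose and 2 fell in Foxd1-ENL-T1. In the same order, 2.88%, 4.34% and 2.65% of all genes tested rose, and 4.88%, 5.28% and 7.53% fell. In sorted Six2 cells at E18.5 Dock5, a Rac activator, fell by 1.31 ± 0.07 (edgeR adjusted p = 3.24e-08), from 129 to 134 CPM in ENL-WT to 48.3 to 56.5 CPM in Six2-ENL-T1. In the same cells Ccn2, a matricellular protein and much used YAP reporter, fell by 0.90 ± 0.07 (edgeR adjusted p = 1.25e-06), and Ankrd1, another such reporter, fell by 1.15 ± 0.20 (edgeR adjusted p = 0.00101). Foxf2 was the list gene called up in these sorted cells, on ENL-WT libraries at or under 3 counts (0 to 0.0426 CPM) against 0.146 to 0.439 CPM, so no fold is given. In sorted Six2 cells at E14.5 Igfbp3 (up) and Dock5 (down) were called of 19, with a list median of 0.06, beside 4.11% of all genes up and 2.28% down. In sorted Foxd1 cells 1 of 17 was called, beside 5.81% of all genes. It was Ccn1, a relative of Ccn2, at 535 to 631 CPM in ENL-WT against 272 to 317 CPM in Foxd1-ENL-T1 (log2 fold change -0.97 ± 0.07, edgeR adjusted p = 6.7e-08).

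Of 13 genes of the stromal Fat4 circuit (stromal regulators, decorin, and progenitor and ureteric genes around it), 2 rose and 7 fell in sorted Six2 cells at E18.5, and 1 rose and 5 fell at E14.5. Of all genes tested 6.14% rose and 5.54% fell at E18.5, and 4.11% rose and 2.28% fell at E14.5. The progenitor genes Cited1 and Six2 fell at both stages, at E18.5 Cited1 by 2.64 ± 0.16 (edgeR adjusted p = 9.34e-08) from 30.5 to 44.8 CPM to 4.96 to 7.30 CPM. Foxd1 fell by 1.93 ± 0.10 (edgeR adjusted p = 2.87e-08) in the same cells. Dcn, which encodes the matrix proteoglycan decorin, an antagonist of Bmp7 signaling kept low in stroma by Foxd1, rose by 1.54 ± 0.16 (edgeR adjusted p = 1.44e-05) from 6.89 to 11.8 CPM to 24.6 to 30.1 CPM. These values of Dcn are small beside the 451 to 1020 CPM of sorted Foxd1 ENL-WT cells, and Dcn and Foxd1 are also on the list of stromal markers. In sorted Foxd1 cells the genes called down included Tcf21, a stromal regulator (-0.99 ± 0.06, edgeR adjusted p = 1.35e-08), and Gdnf, the ligand of the Ret receptor (-1.05 ± 0.15, edgeR adjusted p = 6.99e-05), and none of the 11 tested was called up. Of all genes tested there 3.63% were called up and 2.18% down. Whole Foxd1 kidneys had Six2 (0.75 ± 0.08, edgeR adjusted p = 1.65e-05) and Ret (0.72 ± 0.06, edgeR adjusted p = 9.24e-07) called up of 13, with Foxd1-ENL-T1 at 194 to 241 CPM of Six2 and ENL-WT at 118 to 136 CPM. Of all genes tested in these kidneys 2.65% were called up. In whole kidneys of Six2-ENL-T1 4 of the 13 fell and none rose, and in those of Six2-ENL-T3 7 fell and 1, Tcf21, rose. The shares of all genes were 4.88% down and 2.88% up in Six2-ENL-T1, and 5.28% down and 4.34% up in Six2-ENL-T3.

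Genes whose mean level over the 11 groups ran most like that of a member were found among 13994 protein coding genes by Pearson's r of log2 CPM, given as a description over groups that share tables, depth and gene length. For Fat4 they were Lancl3 (0.972), Sdk2 (0.957) and Cdk6 (0.955), for Dchs1 Ptgs2 (0.980), Spry2 (0.978) and Fosl2 (0.969), and for Fat1 Prrc2c (0.989), Ubr4 (0.988) and Samd8 (0.988). Likeness was lower for Fat3, with Gabrb1, Epha4 and Cyp1a1 at 0.916, and for Fjx1, with Glcci1 (0.912), Map3k10 (0.908) and Hist2h3c2 (0.894).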

How the data were processed

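Polyadenylated RNA was sequenced from whole kidneys with a stranded kit and from sorted tdT+ cells with an ultra-low-input kit. The authors aligned reads to mm10 with HISAT2 and counted them per gene without strand with HTSeq, and the deposited values are raw read counts in 4 tables. The annotation release is not given in the sources used here, and GENCODE vM21 gave symbols (55536 of 55806 identifiers), positions and exon lengths. Read length, run and depth differed between Six2 and Foxd1 libraries, and E14.5 and E18.5 kidneys were dissociated with different enzymes.

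Counts were analysed with edgeR 4.0.16 (with limma 3.58.1) in R 4.3.3 (TMM, filterByExpr with a minimum count of 10 and a total of 15, quasi-likelihood test, Benjamini-Hochberg over all genes tested). Genotype calls needed more than a 1.5-fold difference with an adjusted p below 0.05, stage and lineage calls more than 2-fold with one below 0.01, and interactions an adjusted p below 0.05. SE is the log2 fold change divided by the root of F. Levels are CPM on TMM-scaled libraries, and the limit of detection is 3 counts. Alternatives were the exact test, DESeq2 1.42.0, RLE factors, library size, no low-count filter, no fold-change threshold, the replicate number as a block, each library left out and, chosen after seeing the data, centring on length class and sex as a covariate. The fits were tested on simulated data. The 7 genes and all lists were chosen with earlier results of these data known. All 7 are named in every comparison, list genes only where called, with values for at most 4 per list and comparison, except that 1 gene is not reported here, and like genes are the 3 with the highest Pearson's r over 11 group means of at least 1 CPM. Figures were drawn with matplotlib 3.10.9.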

Additional observations from a re-analysis of the deposited data

Results flagged for a closer look

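Fat3 responded differently in the 2 lineages at E18.5, with a lineage by genotype interaction of 2.32 on the log2 scale, and so did Fat4 (-0.57). The Dchs2 value of this interaction, -2.72, rests on 1 to 7 counts per sorted Foxd1 library and was -1.80 and not called without the third Foxd1 ENL-WT library, so no difference is read from it. In the stage by genotype interaction in sorted Six2 cells Fat1 was at -0.47 and Fat2 at -1.34, and in the interaction of driver and genotype in whole kidneys Fat2 was at 0.99, or 0.67 and not called with sex as a covariate. Each of these 6 differences was tested as an interaction term by edgeR, and lineage or driver cannot be told apart from sequencing run in 4 of them. In sorted Foxd1 ENL-WT cells 1 of 4 libraries lay far from the others for Fat1, at 179 CPM beside 162 to 164 CPM (gap over range 0.925), and chance marks about 1 in 20 groups in this way. For Fat2 the gap over range is 1 by construction, since 1 library had 1 count and the others 0, all under the limit of 3 counts, and nothing is read from it.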

How the results depend on the processing

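Under every alternative run Dchs2 stayed called up in the 4 comparisons of Six2 mutants with ENL-WT, Fat4 up and Fat3 down in sorted Six2 cells at E18.5, and Fat3 up in sorted Foxd1 cells. Without the fold-change threshold 4 of the 7 genes were called in Six2-ENL-T3 whole kidneys, 5 in sorted Six2 cells at E14.5, 3 in sorted Foxd1 cells and 3 in whole Foxd1 kidneys. In the stage interaction the count was 1 with library size only, 4 with no low-count filter and 0 with the replicate block. In the whole kidney interaction it was 2 with DESeq2 or RLE factors and 3 with no low-count filter. Same-numbered libraries deviated together with r from -0.139 to 0.299, not above 0.1 in every pair, so the numbers were not taken to pair libraries. The replicate block left 3 of 7 genes called between stages (Dchs1 and Dchs2 lost) and ended the call of Fat3 at E14.5 (-0.61, edgeR adjusted p = 0.07). It turned Dchs2 between lineages to -0.75. Turned with library size only were Dchs1 in Six2-ENL-T1 (0.01) and Fjx1 in Six2-ENL-T3 (0.01) whole kidneys. With sex as a covariate, in whole Six2 kidneys, Dchs1 (0.13) and Fjx1 (0.02) turned in Six2-ENL-T1, Dchs1 (-0.16) in Six2-ENL-T3, and Fat1 (-0.44), Fat2 (-0.38), Fat4 (-0.42), Dchs1 (-0.28) and Fjx1 (-0.22) between the mutants, as did Fjx1 in the whole kidney interaction (-0.02). The causes were not tested.

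With each library left out in turn, the number of genes called ranged from 1 to 3 in each whole Six2 mutant, 1 to 2 in sorted Foxd1 cells, 0 to 3 in the stage interaction and 0 to 4 in the whole kidney interaction. Signs turned within these ranges: Dchs1 -0.23 to 0.15 and Fjx1 -0.27 to 0.04 in Six2-ENL-T1, Dchs1 -0.16 to 0.22 and Fjx1 -0.20 to 0.11 in Six2-ENL-T3 and Fat1 -0.03 to 0.08 between the mutants. In sorted Six2 cells at E18.5 they turned for Fat2 (-0.06 to 0.27) and Fjx1 (-0.11 to 0.15), in whole Foxd1 kidneys for Fat1 (-0.04 to 0.10) and Fjx1 (-0.02 to 0.11), and between lineages for Dchs2 (-0.53 to 0.80). They also turned in the interactions, by lineage for Dchs1 (-0.13 to 0.01) and in whole kidneys for Fat4 (-0.51 to 0.10) and Fjx1 (-0.02 to 0.34). Sorted Foxd1 libraries were too shallow to test Fat2 and Dchs2 between genotypes.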

Other observations

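Genes within 1 megabase of Dchs2 were read after its values had been seen. The nearest, Plrg1, a splicing factor gene 56 kilobases away, was called in none of the 6 comparisons of a mutant with ENL-WT and stood at 0.10 on the log2 scale (edgeR adjusted p = 0.347) in sorted Six2 cells at E18.5. Sfrp2, which encodes a secreted Wnt modulator and lies 409 kilobases away, was called up there (1.33, edgeR adjusted p = 4.96e-09), in whole kidneys of Six2-ENL-T1 (1.03) and of Six2-ENL-T3 (0.85) and in sorted Foxd1 cells (1.26, edgeR adjusted p = 1.81e-05), but not at E14.5 (-0.01). In the same sorted Six2 cells Tlr2 (0.99), Trim2 (0.95) and Gucy1a1 (1.27) were called up, and the fibrinogen genes Fga (-2.07) and Fgb (-1.62) were called down.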
